A study of Homo sapiens with 4 samples.

Results

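The 10 genes described here were grouped around the making, sensing, uptake and removal of extracellular adenosine. They are NT5E (the ecto-5'-nucleotidase CD73), ENTPD1 (CD39) and ENTPD4, an intracellular relative of CD39. The others are the adenosine receptors ADORA1, ADORA2A and ADORA2B, the enzymes ADA and ADK, and the nucleoside carriers SLC29A1 and SLC29A2. All 10 genes were picked by gene symbol from a table of 28930 symbols, and each had a row. RNA was sequenced from MDA-MB-231, an established human triple-negative breast cancer cell line, in 2 libraries after siRNA knockdown of hTrmt13 and in 2 libraries given a control siRNA. hTrmt13 (gene TRMT13) is a tRNA methyltransferase, and the study asked which genes it controls at the level of transcription. The siRNA sequence, its dose and the time of harvest were not given in the sources used here. Whether the 2 libraries of a group are separate cultures is not said there, and the spread behind each p-value may be technical.

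Cells release ATP, which CD39 on the cell surface cuts to AMP, and CD73, held on the outer membrane by a glycosylphosphatidylinositol (GPI) anchor, cuts AMP to adenosine. Adenosine acts on G protein-coupled receptors, of which the products of ADORA2A and ADORA2B raise cyclic AMP and that of ADORA1 lowers it. Equilibrative transporters carry adenosine into the cell, where adenosine kinase turns it back to AMP and adenosine deaminase turns it to inosine. CD73 is abundant on many triple-negative breast cancers, where its adenosine is known to dampen immune cells.

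The set was drawn up with the results of these same 4 libraries known, NT5E above all, so its values are a description and carry no independent test. TRMT13 itself stood at 3.52 and 4.79 CPM (counts scaled to library size with edgeR's TMM factors) in the knockdown libraries, against 14.9 and 18.9 CPM in the control libraries, so each library went with its label (log2 fold change −2.02, SE 0.34, edgeR adjusted p = 0.0399). Total counts ran from 9777267 to 13098985 per library. Of 10 genes listed as markers of the line, all were detected, with summed levels of 4873 to 5010 CPM in knockdown and 5942 to 6141 CPM in control. Among blood cell markers, CD3E, MS4A1 and HBB had 0 counts, and the sum over the list was 0.761 to 1.12 CPM in knockdown and 0.851 to 1.15 CPM in control. Of 8 breast epithelial markers, luminal but for the basal keratin KRT5, ESR1, PGR and KRT5 had 0 counts, and the sum was 24.7 to 25.1 CPM in knockdown and 44.9 to 48.04 CPM in control. The 4 that were tested, EPCAM, GATA3, FOXA1 and ERBB3, all had negative log2 fold changes. The 8 fibroblast and endothelial markers with a row summed to 33.3 to 51.3 CPM in knockdown and 61.6 to 78.2 CPM in control, with DCN at 0. The 3 that were tested, COL1A1, PDGFRB and CDH5, all had negative log2 fold changes. Of all these markers, SPARC and CDH5 were called lower, by edgeR. The part of these lower marker sums in the results below was not tested. All 4 libraries were of the same cell line, so these sums do not show that cells of the other types were present. In bulk RNA, fewer cells with a transcript and less of it per cell cannot be told apart.

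NT5E, the gene for CD73, held 236.7 and 304.4 CPM in the knockdown libraries, against 1219 and 1061 CPM in the control libraries. Both knockdown libraries lay far below both controls: the closest pair of libraries was 3.49-fold apart and the most distant pair 5.15-fold. The means were 270.5 ± 47.9 CPM in knockdown and 1140 ± 111.2 CPM in control (SD, n = 2 each). The fitted log2 fold change was −2.07 (SE 0.23), or 4.21-fold lower, and in the edgeR quasi-likelihood fit of 13022 genes it had rank 24 by p-value (Benjamini-Hochberg adjusted p = 0.0262). By CPM, NT5E ranked 699 and 453 among all symbols in the knockdown libraries and 72 and 73 in the control libraries, so it was among the most counted transcripts of control cells. Its counts, 2489 and 4064 in knockdown and 11674 and 13720 in control, are deep enough that counting error is small beside the spread between libraries (ratio of depth-scaled counts 0.243, 95% exact binomial interval 0.237 to 0.25, counting error only).

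**Figure D1:**
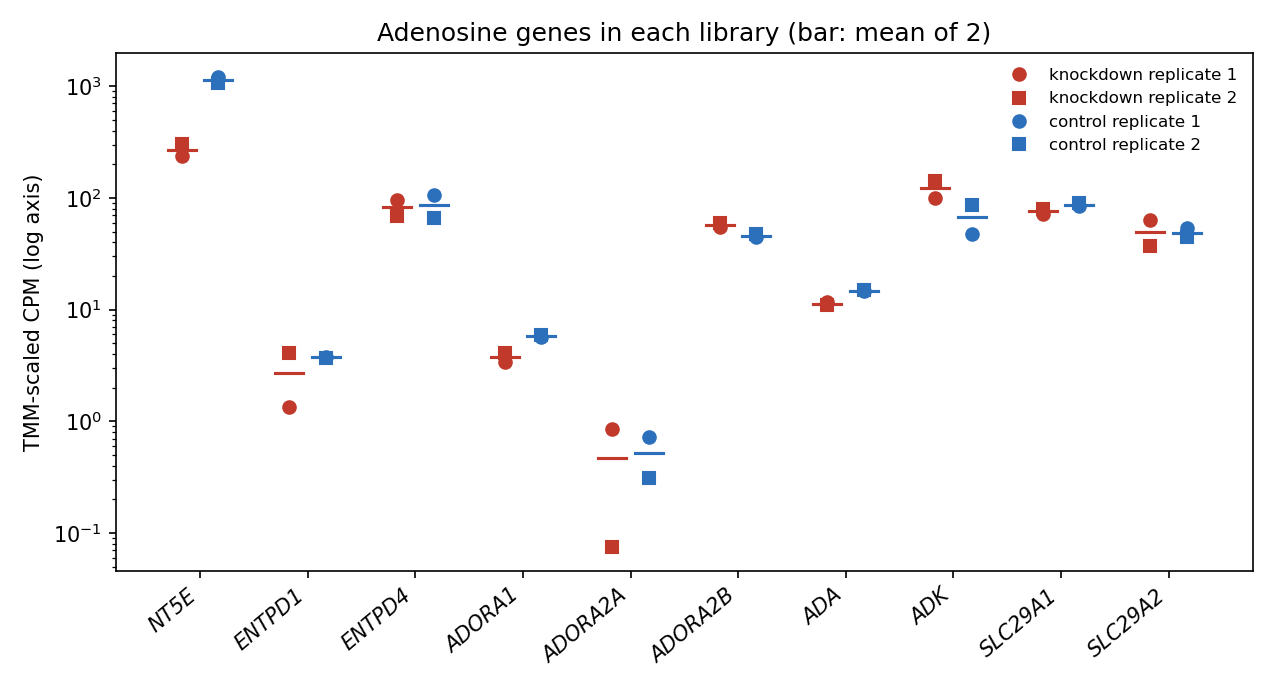
TMM-scaled CPM of the 10 adenosine genes in each library on a log axis, knockdown left of control for each gene, with circles for replicate 1, squares for replicate 2 and a bar at the mean of 2. NT5E falls to 236.7 and 304.4 CPM in knockdown, against 1219 and 1061 CPM in control, while none of the other genes tested was called.

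The promoter sequence of NT5E is shown because its transcript is the member that differs most, beside those of ADORA2B and ADK, members whose knockdown libraries lay above the controls. Each window covers 250 bases before the RefSeq start and 50 bases from it on (RefSeq, GRCh38.p14, plus strand, 5' to 3'). These are chr6:85449833-85450132 for NT5E, chr17:15944880-15945179 for ADORA2B, and chr10:74150971-74151270 for ADK, at the first of its 2 listed starts. Capitals mark the core of the cyclic AMP response element, TGACG, and the GC box, GGGCGG, read on either strand.
NT5E: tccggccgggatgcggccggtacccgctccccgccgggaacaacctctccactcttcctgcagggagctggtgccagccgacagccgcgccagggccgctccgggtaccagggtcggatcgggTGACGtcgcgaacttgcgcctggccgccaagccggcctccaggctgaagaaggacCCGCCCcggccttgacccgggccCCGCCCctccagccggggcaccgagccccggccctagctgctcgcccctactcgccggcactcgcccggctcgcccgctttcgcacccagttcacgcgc
ADORA2B: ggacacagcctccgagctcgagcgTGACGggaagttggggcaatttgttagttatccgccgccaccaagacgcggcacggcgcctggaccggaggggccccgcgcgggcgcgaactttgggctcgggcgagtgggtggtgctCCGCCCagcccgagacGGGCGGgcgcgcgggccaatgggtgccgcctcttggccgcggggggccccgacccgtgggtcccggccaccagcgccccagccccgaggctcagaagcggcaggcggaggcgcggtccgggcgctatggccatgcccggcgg
ADK: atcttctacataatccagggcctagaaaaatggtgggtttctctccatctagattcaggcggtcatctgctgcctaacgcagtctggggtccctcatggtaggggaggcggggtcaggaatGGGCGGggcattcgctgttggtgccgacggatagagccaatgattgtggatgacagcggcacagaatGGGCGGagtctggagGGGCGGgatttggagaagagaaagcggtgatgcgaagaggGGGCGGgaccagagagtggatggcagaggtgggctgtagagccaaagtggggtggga

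The NT5E window is 75% G or C and holds 1 TGACG, 127 bases before the start, and 2 GC boxes, 72 and 49 bases before it. TGACG is found in 24.6% of 35116 RefSeq windows of the same length and GGGCGG in 45% of them, so neither is uncommon. The whole element TGACGTCA, present in 1.85% of windows, is not in the NT5E window. The window also has no TEAD site (GGAATG, 14% of windows), no AP-1 site (TGANTCA, 7.71%) and no TCF/LEF core (CTTTGA, 12.9%), on either strand. Of the hypoxia element letters, ACGTG (21.4% of windows) is absent and GCGTG (36.5%) is present once, 43 bases after the start. The ADORA2B window has 1 TGACG and 2 GC boxes, and the printed ADK window has 4 GC boxes, no TGACG and 1 GGAATG. The second ADK window, not printed, has 1 TGACG and 2 GC boxes. Of the other members, ADA had 5 GC boxes in its window and ADORA1 had 2, both with no TGACG. The 5 windows of ENTPD1 had no GC box, but 1 of them had 3 TGACG and another had 1. Both windows of SLC29A1 had 3 GC boxes and no TGACG. GC boxes and TGACG were thus each in windows of NT5E, the called member, and of members that were not called. A match is a run of letters and does not show that a factor binds there.

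Of the 10 genes, 9 had enough reads to be tested, 1 was called lower (NT5E) and 0 were called higher by edgeR at an adjusted p under 0.05, against 2.99% of all genes called (1.96% lower and 1.03% higher). DESeq2 and limma-voom gave the same counts for the members, where DESeq2 called 5.15% of all genes lower and 3.52% higher and limma-voom called 2.5% in either direction. An unadjusted p under 0.05 was found for 2 of the 9, NT5E and ADK, and for 24% of all genes, so that count is near the background. The set was drawn up with this comparison known, so these counts describe it. In 6 of the 9 the knockdown and control libraries did not overlap, 4 lower and 2 higher, beside 54.3% of all genes tested (26.8% lower and 27.5% higher), so these counts are not a result about the members. The median log2 fold change was −0.19 over the 9 genes and 0.01 over all genes tested.

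**Figure D2:**
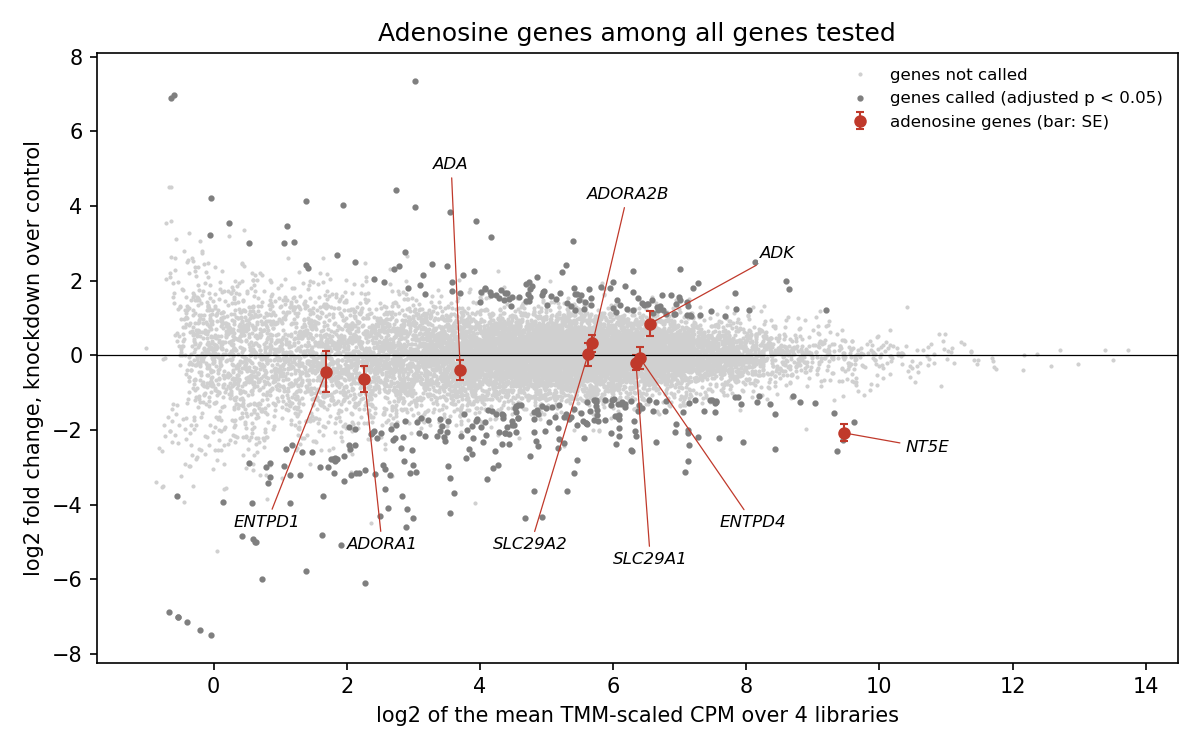
Log2 fold change of knockdown over control against the log2 mean CPM of each of 13022 genes tested, with the 9 tested adenosine genes in red and bars for the SE. NT5E, at −2.07, is the only one of the 9 among the called genes and has the highest mean level of them.

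Neither ENTPD1 nor ENTPD4, the members of the CD39 family, was called. ENTPD1, whose product CD39 supplies AMP to CD73, had 1.33 and 4.12 CPM in knockdown, against 3.76 and 3.71 CPM in control, on only 14 to 55 counts per library. Its groups overlapped, the knockdown libraries standing either side of the controls. The log2 fold change was −0.43 (SE 0.55, edgeR adjusted p = 0.675), and it turned to 0.15 without knockdown replicate 1. The depth-scaled ratio was 0.775, with a 95% exact counting interval of 0.555 to 1.08, and the knockdown libraries were further apart than the groups. ENTPD4, an intracellular relative of CD39 in Golgi and lysosomal membranes, had 95.7 and 69.4 CPM in knockdown, against 106.7 and 66.4 CPM in control. Its spread lay between replicates and not between groups, replicate 1 being higher in each group (log2 fold change −0.069, SE 0.30, edgeR adjusted p = 0.919). Leaving out control replicate 1 turned it to 0.31, and leaving out knockdown replicate 2 to 0.15.

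None of the receptors was called, and ADORA2B had the most reads. ADORA2B, the low-affinity receptor that raises cyclic AMP, had 55.1 and 59.7 CPM in knockdown, against 44.3 and 47.6 CPM in control. Both knockdown libraries were above both controls, but by 1.25-fold in the fit, and this did not pass (log2 fold change 0.32, SE 0.22, edgeR adjusted p = 0.432). ADORA1, the receptor that lowers cyclic AMP, had 3.42 and 4.12 CPM in knockdown, against 5.74 and 5.96 CPM in control. The groups did not overlap, and the difference did not pass (log2 fold change −0.63, SE 0.34, edgeR adjusted p = 0.317). ADORA2A, the receptor best known from T cells and striatal neurons, had 9 and 1 counts in knockdown, against 7 and 4 counts in control, and was too low to be tested (depth-scaled ratio 0.857, 95% exact counting interval 0.326 to 2.22). SPECC1L-ADORA2A, a read-through transcript that shares ADORA2A exons, had 0 counts in all 4 libraries. Reads that 2 overlapping genes share can be dropped or split in counting, so the ADORA2A counts may be too low. Per transcript length, ADORA2B made up 96.0% and 96.5% of the summed level of the 3 receptors in knockdown, and 92.9% and 93.7% in control. Any loss of ADORA2A reads would make these shares too high. ADORA3, a further adenosine receptor gene, had no row and is not in the sum.

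Of the enzymes that remove adenosine inside the cell, ADK stood higher in knockdown and ADA lower, and neither was called. ADK, adenosine kinase, had 100.1 and 142.8 CPM in knockdown, against 47.8 and 86.6 CPM in control. The lower knockdown library was 1.16-fold above the higher control, and replicate 2 was the higher library in each group. The log2 fold change was 0.85 (SE 0.34), 1.80-fold, with an edgeR adjusted p of 0.191. This value moved with the library left out. Leaving out control replicate 2 gave 1.35 and leaving out knockdown replicate 1 gave 1.09. Leaving out control replicate 1 gave 0.49 and leaving out knockdown replicate 2 gave 0.57. ADK was called higher with no filter on low counts (edgeR adjusted p = 0.0256). It was also called higher with the replicate number as a block (log2 fold change 0.89, SE 0.16), where 40.1% of all genes were called. ADA, adenosine deaminase, had 11.6 and 10.9 CPM in knockdown, against 14.6 and 15.01 CPM in control. Its libraries were close within each group and did not overlap between them, yet the fitted −0.39 on the log2 scale (SE 0.28) did not pass (edgeR adjusted p = 0.43). Per transcript length, the ratio of ADK to ADA within a library was 5.98 and 9.04 in knockdown, and 2.27 and 3.999 in control. These ratios do not depend on the scaling between libraries, and the knockdown libraries were above the controls. The groups also did not overlap in 54.3% of all single genes tested, and neither ADK nor ADA was called, so this separation is a description. Replicate 2 had the higher ratio in each group.

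Neither of the equilibrative carriers was called. SLC29A1 encodes ENT1, the main adenosine carrier of many cells, and had 72.5 and 79.2 CPM in knockdown, against 84.2 and 89.2 CPM in control. The groups did not overlap, and the fitted difference, −0.19 on the log2 scale (SE 0.21), did not pass (edgeR adjusted p = 0.622). SLC29A2 encodes ENT2 and had 62.8 and 37.2 CPM in knockdown, against 53.2 and 44.3 CPM in control. The knockdown libraries enclosed the controls, replicate 1 being higher in each group, and the fit gave 0.035 on the log2 scale (SE 0.31, edgeR adjusted p = 0.962). Leaving out knockdown replicate 1 turned it to −0.38, and leaving out control replicate 2 to −0.093.

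Levels of different genes were compared as CPM per kilobase of the longest coding transcript in GENCODE release 29. In knockdown the order of the means was NT5E, ADK, ADORA2B, SLC29A1, SLC29A2, ENTPD4, ADA, ADORA1, ENTPD1 and ADORA2A. In control it was NT5E, SLC29A1, ADK, ADORA2B, SLC29A2, ENTPD4, ADA, ADORA1, ENTPD1 and ADORA2A, so SLC29A1 stood below ADK and ADORA2B in knockdown and above both in control, while ADK was next above ADORA2B in each group. NT5E stood at 69.1 ± 12.2 CPM per kb in knockdown and 290.9 ± 28.4 CPM per kb in control (SD, n = 2 each). In knockdown it was 1.26-fold above ADK and their libraries overlapped, whereas in control it was 7.80-fold above the next member, SLC29A1, with no overlap. ADORA2B and SLC29A1, and SLC29A2 and ENTPD4, overlapped as neighbours in the knockdown order, as did ENTPD1 and ADORA2A. In the control order the overlapping neighbours were SLC29A1 and ADK, ADK and ADORA2B, and SLC29A2 and ENTPD4. At the low end, ENTPD1 had 0.264 and 0.817 CPM per kb in knockdown, and 0.745 and 0.736 CPM per kb in control.

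**Figure D3:**
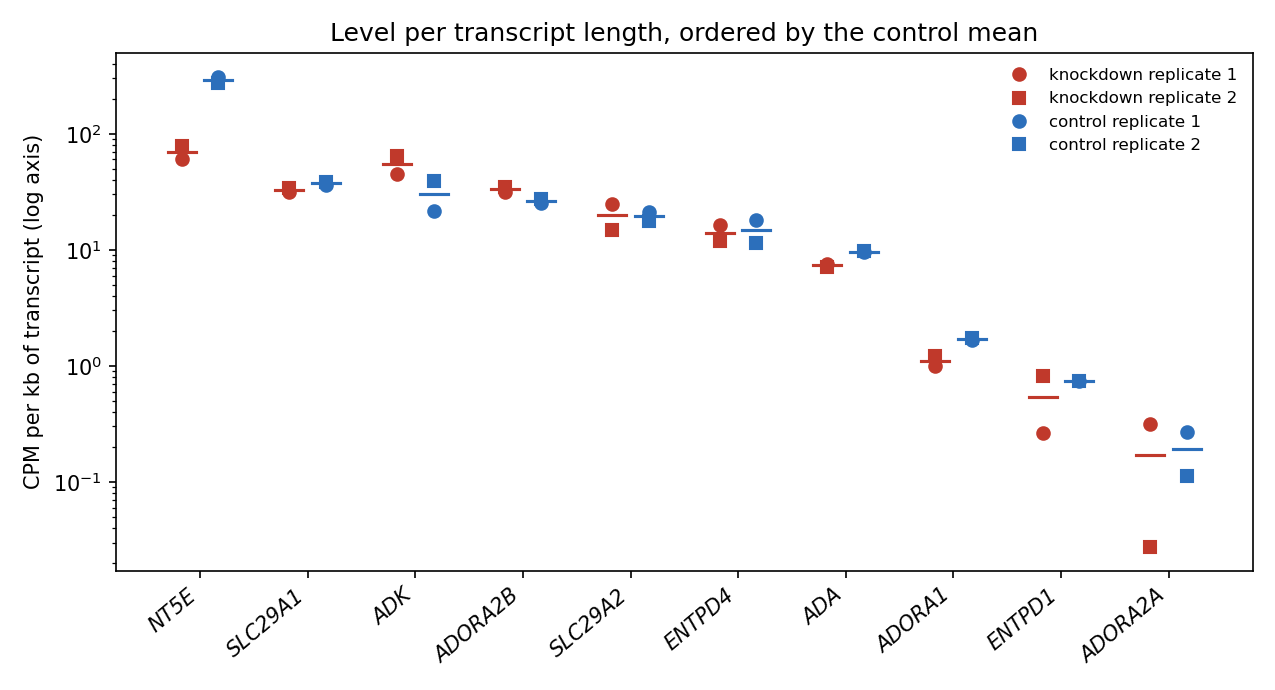
CPM per kilobase of transcript of the 10 genes in each library on a log axis, ordered by the control mean, knockdown left of control. NT5E averages 69.1 CPM per kb in knockdown, next to ADK at 54.7, and 290.9 CPM per kb in control, 7.80-fold above the next gene.

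The balance between the members also follows from these levels. NT5E took 27.6% and 31.6% of the summed level of the 10 genes in knockdown, against 69.8% and 65.0% in control. NT5E exceeded ENTPD1 by 228.9-fold and 95.1-fold in the knockdown libraries and by 417.5-fold and 368.0-fold in the control libraries. The transcript for CD39 was thus scarce beside the transcript for CD73 in every library. Other enzymes that make AMP outside the cell were not part of this ratio. NT5E was 1.34-fold and 1.21-fold above ADK in knockdown, and 14.5-fold and 6.95-fold above it in control. In each of these ratios the knockdown libraries lay apart from the controls, which for those with NT5E restates its lower level. The ratio of SLC29A1 to SLC29A2 overlapped between the groups, at 1.25 and 2.30 in knockdown and 1.71 and 2.18 in control.

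Genes beside NT5E on chromosome 6 were read to see whether its neighbourhood differed too. Of the 3 nearest genes with a row on each side, 4 had enough reads to be tested. Of these 4, 0 were called by edgeR, DESeq2 or limma-voom, where edgeR called 2.99% of all genes, and 0 had an unadjusted p under 0.05, against 24% of all genes. SNX14, a sorting nexin gene and the nearest neighbour on the higher-coordinate side, had 55.5 and 92.8 CPM in knockdown, against 65.0 and 94.0 CPM in control, so its groups overlapped (log2 fold change −0.10, SE 0.32, edgeR adjusted p = 0.884). SYNCRIP, which encodes an RNA-binding protein, had 278.7 and 344.7 CPM in knockdown, against 198.3 and 240.5 CPM in control (log2 fold change 0.51, SE 0.23, edgeR adjusted p = 0.232). SNHG5, a snoRNA host gene, had 113.1 and 231.4 CPM in knockdown, against 149.9 and 219.1 CPM in control, with more spread between replicates than between groups. On the other side CEP162, a centriole protein gene, had 5.52 and 7.49 CPM in knockdown, against 6.68 and 8.43 CPM in control. TBX18, the nearest gene on that side, had 3 and 0 counts in knockdown and 2 and 0 counts in control, and LINC01611 had 0 in all libraries, so neither was tested.

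By the shape of their levels over the 4 libraries, the genes most like NT5E were IFNLR1, CKB, HMGA2, HINT1 and MYL12A. Likeness was the distance between log2 CPM centred on each gene's mean, among 8004 genes averaging 20 CPM or more, and ran from 0.044 for IFNLR1 to 0.222 for MYL12A. With 4 libraries in 2 groups, this picks genes that were about as much lower, and their values are a description. HMGA2, a chromatin architectural protein, had 47.5 and 63.7 CPM in knockdown, against 289.7 and 219.5 CPM in control. MYL12A, a myosin light chain, had 49.2 and 57.2 CPM in knockdown, against 219.5 and 231.8 CPM in control. IFNLR1, a receptor chain for interferon lambda, had 7.89 and 10.1 CPM in knockdown, against 39.8 and 35.0 CPM in control. CKB, brain-type creatine kinase, and HINT1, a nucleotide-binding hydrolase, had fold sizes of 4.34 and 4.05. In all of these genes both knockdown libraries lay below both controls.

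Beyond the 10 genes, 243 further genes were read, of which 180 were tested: genes of purine handling and cyclic AMP signalling, GPI-anchored proteins and the enzymes that build their anchor, transcription factors linked to NT5E, and ENG. Among these, edgeR called 5 lower (2.78%) and 1 higher (0.556%), near the 1.96% and 1.03% of all genes. DESeq2 called 17 lower and 8 higher, and 62 of the 180 had an unadjusted p under 0.05. These were larger shares than the 5.15% lower, 3.52% higher and 24% of all genes. The lists were chosen with earlier results of these data known, so these counts are a description. The same shares of all genes, 24% at an unadjusted p under 0.05 and 5.15% lower and 3.52% higher in DESeq2, are the background for the counts of each list below. Leaving out any 1 library gave 8 to 12 lower and 2 to 5 higher. Their median log2 fold change was −0.09.

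The 15 tested genes of nucleotide release had a median log2 fold change of −0.39, 12 of them negative, and edgeR called 1. DESeq2 called 1 higher and 4 lower, and 8 of the 15 had an unadjusted p under 0.05. VDAC1, a channel of the outer mitochondrial membrane that some cells also carry at the surface, fell to 145.9 and 191.1 CPM in knockdown, against 396.1 and 407.1 CPM in control (log2 fold change −1.25, SE 0.23, edgeR adjusted p = 0.0435). Of 12 tested genes for other extracellular nucleotide and nucleoside enzymes, 2 fell and 0 rose in edgeR, and DESeq2 called 0 higher and 4 lower. The median was −0.68, and 5 had an unadjusted p under 0.05. ALPP, placental alkaline phosphatase, which can also release phosphate from AMP, fell to 8.08 and 3.90 CPM in knockdown, against 104.5 and 42.2 CPM in control (log2 fold change −3.62, SE 0.55, edgeR adjusted p = 0.0357). Its libraries differed within each group, and its fold size of 12.3 became 7.08 on leaving out control replicate 1, 18.7 on leaving out knockdown replicate 1. ALPP has near-identical relatives, so reads may be shared with them: ALPPL2 had 0.666 and 0.225 CPM in knockdown and 16.2 and 3.64 CPM in control. ENTPD3, a cell-surface relative of CD39, fell to 0.666 and 0.749 CPM in knockdown, against 5.43 and 3.25 CPM in control (log2 fold change −2.58, SE 0.48, edgeR adjusted p = 0.0466). That call ended in limma-voom (adjusted p = 0.0589), and in edgeR on leaving out control replicate 1 (0.0522) or knockdown replicate 2 (0.0691).

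Inside the cell, no tested gene on the lists of intracellular nucleotidases and of purine conversion and salvage was called by edgeR. Of 8 intracellular nucleotidases and relatives tested, 0 were called by edgeR, DESeq2 or limma-voom, 2 had an unadjusted p under 0.05, and the median log2 fold change was 0.29. NT5C2, a cytosolic nucleotidase that prefers IMP and GMP, had 278.3 and 222.4 CPM in knockdown, against 182.3 and 148.4 CPM in control (log2 fold change 0.60, SE 0.23, edgeR adjusted p = 0.179). NT5DC2, a nucleotidase-domain gene, stood at 58.7 and 74.2 CPM in knockdown, against 100.8 and 126.8 CPM in control. Of 22 purine conversion and salvage genes tested, edgeR and limma-voom called 0, DESeq2 called 2 higher and 1 lower, and 12 had an unadjusted p under 0.05. The median was 0.01, with 11 positive and 11 negative. IMPDH2, the rate-limiting enzyme of guanine nucleotide synthesis, had 524.3 and 536.0 CPM in knockdown, against 234.6 and 290.2 CPM in control (log2 fold change 1.01, SE 0.21, edgeR adjusted p = 0.0581), and passed in DESeq2 (adjusted p = 0.00736), without control replicate 2 (0.0286) and without knockdown replicate 1 (0.0259). AK7, an adenylate kinase of cilia, had 18 and 39 counts in knockdown and 3 and 7 counts in control (edgeR adjusted p = 0.0721, and 0.0276 without knockdown replicate 1).

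Of 5 further nucleoside carriers, 2 were tested and 0 were called by any of the 3 tools, with 1 at an unadjusted p under 0.05. SLC29A4, the monoamine and adenosine carrier ENT4, had 2.47 and 1.87 CPM in knockdown, against 7.62 and 3.17 CPM in control (edgeR adjusted p = 0.19, and 0.0487 without control replicate 2). SLC29A3, the lysosomal carrier ENT3, had 37.9 and 27.7 CPM in knockdown, against 47.0 and 41.3 CPM in control (edgeR adjusted p = 0.366). Of 17 other purinergic receptor genes with a row, 6 were tested, 0 were called by any of the 3 tools and 0 had an unadjusted p under 0.05. P2RX4, an ATP-gated channel, had 12.5 and 11.8 CPM in knockdown, against 17.5 and 19.0 CPM in control. P2RY2, a receptor for ATP and UTP, had 8.75 and 6.74 CPM in knockdown, against 11.1 and 14.2 CPM in control.

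Genes of cyclic AMP signalling, which lies downstream of the adenosine receptors, were 17 positive and 18 negative in their fold changes. Of 35 tested, 1 rose and 0 fell in edgeR, 12 had an unadjusted p under 0.05, DESeq2 called 3 higher and 1 lower, limma-voom called 0, and the median log2 fold change was −0.03. PDE7B, a phosphodiesterase that breaks down cyclic AMP, rose to 6.75 and 10.34 CPM in knockdown, against 2.30 and 1.86 CPM in control (log2 fold change 2.05, SE 0.40, edgeR adjusted p = 0.0493). This call sat at the threshold and ended without knockdown replicate 2 (adjusted p = 0.0936) and without control replicate 2 (0.055). Of 10 tested cyclic AMP response genes, edgeR and limma-voom called 0, DESeq2 called 2 higher and 1 lower, and 5 had an unadjusted p under 0.05. PER1, a clock gene with cyclic AMP elements, had 7.80 and 8.91 CPM in knockdown, against 19.4 and 22.0 CPM in control (log2 fold change −1.31, SE 0.28, edgeR adjusted p = 0.0594, and 0.0137 in DESeq2). PDE4B, a phosphodiesterase induced by cyclic AMP, stood at 9.41 and 12.1 CPM in knockdown, against 3.13 and 4.41 CPM in control (log2 fold change 1.51, SE 0.36, edgeR adjusted p = 0.0707, 0.0312 in DESeq2, and 0.0177 without knockdown replicate 1).

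**Figure D4:**
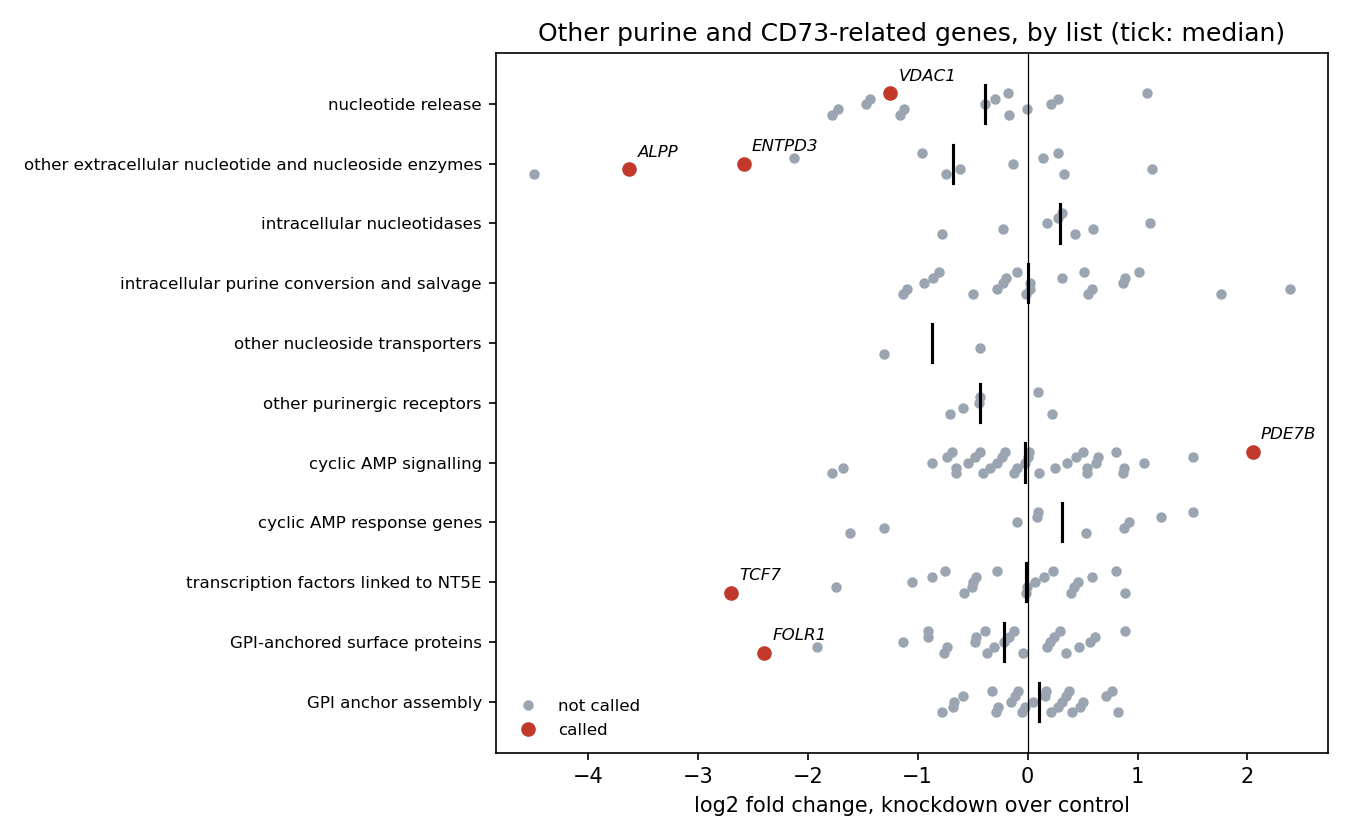
Log2 fold change of knockdown over control for each tested gene of the further lists, 1 list a row, with NT5E left out, called genes in red and a tick at each list's median. Called genes are VDAC1, ALPP, ENTPD3, TCF7 and FOLR1 on the lower side and PDE7B on the higher side.

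Of 21 transcription factors with published links to NT5E or to its pathway, 1 fell and 0 rose in edgeR, DESeq2 called 1 higher and 4 lower, 9 had an unadjusted p under 0.05, and the median was −0.01. TCF7, a TCF/LEF factor of Wnt signalling, fell to 0.761 and 1.27 CPM in knockdown, against 6.37 and 7.12 CPM in control (log2 fold change −2.70, SE 0.43, edgeR adjusted p = 0.0371). The TCF/LEF core letters are not in the NT5E window printed above, and nothing about this factor can be drawn from that. Of 25 tested genes for other GPI-anchored surface proteins, 1 fell and 0 rose in edgeR, and DESeq2 called 0 higher and 2 lower. An unadjusted p under 0.05 was found for 7 of them, and the median was −0.21. FOLR1, a folate receptor, fell to 8 and 9 counts in knockdown, against 42 and 42 counts in control (log2 fold change −2.39, SE 0.45, edgeR adjusted p = 0.0467). That call ended in limma-voom (adjusted p = 0.0567), and in edgeR on leaving out control replicate 1 (0.0534) or knockdown replicate 2 (0.0951). Of 26 tested genes that build the GPI anchor, 0 were called by any of the 3 tools, 3 had an unadjusted p under 0.05, and the median was 0.10. GPAA1, a subunit of the transamidase that attaches the anchor, had 78.6 and 63.4 CPM in knockdown, against 37.0 and 43.5 CPM in control (edgeR adjusted p = 0.113). PGAP2, which remodels the anchor's lipid, had 25.4 and 18.2 CPM in knockdown, against 13.6 and 13 CPM in control (edgeR adjusted p = 0.199). CD73 is also a surface marker of mesenchymal stromal cells together with CD90 and CD105. ENG, the gene for CD105, had 69.1 and 57.7 CPM in knockdown, against 67.7 and 64.3 CPM in control (log2 fold change −0.058, SE 0.23, edgeR adjusted p = 0.907), and THY1, the gene for CD90, had 0 counts in all 4 libraries.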

How the data were processed

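The authors deposited raw counts of reads for each gene symbol, made from total RNA with Illumina TruSeq libraries, per the labels' protocols. The submitters' processing notes list hg19 and GRCh37 as builds and, with no role for each, limma, HTSeq 0.6.1, STAR 2.5.2b and cutadapt. With the annotation and strand setting not given in the sources used here, overlapping and antisense genes cannot be told apart. Of 28930 symbols, 10298 had no count in any library.

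Counts were tested with edgeR 4.0.16 (R 4.3.3): TMM scaling, filterByExpr with a count of 10 and a total of 15 as minimums, and a quasi-likelihood test without covariates on the 13022 genes left, Benjamini-Hochberg adjusted over all genes and called below 0.05. Transcript lengths came from GENCODE release 29, matched by symbol, on a later build than the counts. Means are given with the SD of 2 libraries. DESeq2 1.42.0, limma-voom 3.58.1, other scalings and filters, a replicate block and leaving out each library were alternatives. Intervals on counts are 95% exact binomial and cover counting error only, since reads without molecular identifiers are not independent molecules. Libraries of a group differed by more than sampling noise (chi-square over its degrees of freedom was 44.5 in knockdown and 40.4 in control), so each library counted as 1 sample.

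The members, lists and tests were chosen with earlier results of these data known. Named genes were all members, TRMT13, and up to 4 called genes per list or else up to 2 with the smallest p. Also named were 3 neighbours on each side of NT5E and the 5 genes with the nearest profile. SPECC1L-ADORA2A, ADORA3, ALPPL2, THY1 and the named cell type markers, SPARC and CDH5 among them, were named outside this rule. Not every blood cell marker of the list is reported here. Of 10 members, 7 had promoter windows that were searched here. On simulated counts for 12846 genes, the same fit called 17 of 100 genes altered 2-fold, 87 of 100 altered 4-fold, and 12 unaltered genes.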

Additional observations from a re-analysis of the deposited data

How the results depend on the processing

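NT5E kept its direction and its call in every alternative run, with log2 fold changes from −2.27 to −1.90 when 1 library was left out. Over all genes, the counts lower and higher were 1123 and 826 with no filter on low counts and 671 and 458 with DESeq2, against 255 and 134, and 407 to 572 lower and 198 to 363 higher when 1 library was left out. ADK was the 1 member called higher with no filter on low counts, without knockdown replicate 1 and without control replicate 2, so the count of members higher ran from 0 to 1 over the libraries left out. Genes of the further lists counted 26 lower and 13 higher with no filter, 2 and 0 among genes averaging 5 CPM or more, 17 and 8 with DESeq2, and 3 and 0 with limma-voom, while library size alone gave 0 higher and leaving out 1 library gave 8 to 12 lower and 2 to 5 higher. The sign turned for 6 named genes that were not called: over the libraries left out, the log2 fold change ran from −1.48 to 0.15 for ENTPD1, −0.37 to 0.31 for ENTPD4, −0.38 to 0.37 for SLC29A2, −0.19 to 0.068 for ENG, −0.52 to 0.23 for SNX14 and −0.71 to 0.34 for SNHG5, and SLC29A2 was −0.013 in limma-voom. The cause was not tested. Where a library was left out, the lone library of its group was assumed to vary like those of the other group. The order of levels in control was the same with library size alone and with exon union lengths. No scaling moved the median of all genes by over 0.1.

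Equal replicate numbers deviated together (r = 0.639 across genes), and the serial numbers in the sample titles adjoin within a replicate number and lie apart between them, but the labels do not say that either marks a shared culture, day or run. With the replicate block, 2710 genes were lower and 2517 higher, all 389 genes called without it among them; 1 member (ADK, adjusted p = 0.000103) and 1 neighbour of NT5E (SYNCRIP, 0.0104) were higher, the further lists counted 55 lower and 34 higher, and SLC29A2 stood at −0.0059. Depth limits ADORA2A, with at most 9 counts in a library.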
